A study of Mus musculus with 25 samples.

Results

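The Serpina1 and Serpina3 genes of mouse encode secreted or cellular serine protease inhibitors. The set held 10 genes, Serpina1a, Serpina1b, Serpina1c, Serpina1d and Serpina1e and Serpina3k, Serpina3m, Serpina3n, Serpina3g and Serpina3f, matched by Ensembl identifier. All 10 were found among the 18668 genes of the hepatocyte count table and among the 51912 genes of the immune cell count table. A serpin presents an exposed stretch, the reactive centre loop, as bait to a protease, which is trapped when it cuts the loop. Human SERPINA1, alpha-1-antitrypsin, is made mainly by hepatocytes, circulates in plasma and inhibits neutrophil elastase, and human SERPINA3, alpha-1-antichymotrypsin, is an acute phase protein. Each human gene corresponds to several neighbouring copies in the mouse, and IL-6 acting through gp130 and STAT3 is a main inducer of acute phase genes in hepatocytes.

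RNA was sequenced from cells sorted from mouse liver, in 25 libraries of mice whose strain is given as C57BL/6J 129SV. IL-6 STAT3KO hepatocytes (n = 3) came from Stat3-floxed mice given AAV-TBG-Cre for 2 weeks and an IL-6 plasmid for 1 week. IL-6 hepatocytes (n = 3) came from WT mice that carried the IL-6 plasmid for 1 week, and no vector is named in their labels. DDC STAT3KO hepatocytes (n = 3) came from Stat3-floxed mice with AAV-TBG-Cre for 2 weeks and DDC diet, a feed that injures the liver and bile ducts, for 1 week. DDC hepatocytes (n = 2) had the same floxed genotype and diet with AAV-TBG-GFP. GFP hepatocytes (n = 2) came from WT mice 1 week after a GFP plasmid. Plasmids were delivered by hydrodynamic tail vein injection (HTVi), and TBG is a hepatocyte promoter, so Cre was directed to hepatocytes. The immune libraries came from WT mice after 1 week of DDC diet, as neutrophils, T cells, Ly6C-high monocytes, Ly6C-low monocytes and macrophages (n = 2 each), and from macrophages on normal diet (n = 2). The labels do not say whether replicates were separate animals, so p-values measure the spread between libraries, which may be technical.

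Depth ran from 13.6 to 18.4 (1e6 counts per library) in hepatocytes and from 3.82 to 12.9 in immune cells. Levels are CPM, counts scaled to 1e6 on TMM-scaled library sizes, and a gene was called at an edgeR adjusted p under 0.05 over all genes tested. Stat3, the targeted gene, stood at 116, 96.0 and 116 CPM in IL-6 STAT3KO hepatocytes, against 340, 351 and 424 CPM in IL-6 hepatocytes. It stood at 62.1, 56.3 and 87.3 CPM in DDC STAT3KO hepatocytes, against 150 and 112 CPM in DDC hepatocytes. These levels went the way of the labels, but Stat3 was not called in the DDC comparison, where 0.00% of all genes tested were. IL-6 replicate 3 stood apart, as its Alb level was 6388 CPM, while IL-6 replicates 1 and 2 had 84156 and 33887 CPM. Among the immune libraries, those labelled T cell held 259 to 289 CPM of 6 T cell markers beside 4606 to 6933 CPM of 6 Kupffer cell markers, and are called T-labelled here. Their T cell marker sum was the highest, as every other immune library had 88.2 CPM or less. Against the other DDC cell types, 3 of 6 T cell and 6 of 6 Kupffer cell markers were called higher and 0 lower, where 0.911% of all genes tested were called higher. DDC neutrophil replicate 1 was the only library with Xist above its Y-linked genes.

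All 10 genes lie within 686 kb of chromosome 12 in GRCm38, the 5 Serpina1 genes on the reverse strand and the 5 Serpina3 genes on the forward strand. Serpina1b spans 103728156 to 103830373, Serpina1d 103763594 to 103773592, Serpina1a 103853589 to 103863562, Serpina1c 103894926 to 103904887 and Serpina1e 103946931 to 103958975. Serpina3f spans 104214544 to 104221129, Serpina3g 104236245 to 104241939, Serpina3k 104338486 to 104346144, Serpina3m 104338486 to 104394257 and Serpina3n 104406729 to 104414329. Serpina3k and Serpina3m share 60 exonic bases, and 31.5% of the exonic bases of Serpina1c also lie in B430119L08Rik on the other strand. Whether counting used strand is not given in the sources used here.

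The coding sequences of the Serpina1 genes were 96.3% to 98.5% identical to each other. The stretches that encode the reactive centre loop are shown because the loop meets the protease and the copies differ in it. In the Serpina1 stretch of 72 bases, read from GRCm38, capitals mark the 15 positions that differ among the 5 genes.
Serpina1a (chr12:103853765-103853836, reverse strand): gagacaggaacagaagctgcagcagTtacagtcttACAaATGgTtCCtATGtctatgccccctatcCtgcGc
Serpina1b (chr12:103728332-103728403, reverse strand): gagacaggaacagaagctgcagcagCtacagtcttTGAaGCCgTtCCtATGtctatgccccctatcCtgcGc
Serpina1c (chr12:103895102-103895173, reverse strand): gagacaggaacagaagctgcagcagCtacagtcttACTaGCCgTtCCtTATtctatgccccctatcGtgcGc
Serpina1d (chr12:103763770-103763841, reverse strand): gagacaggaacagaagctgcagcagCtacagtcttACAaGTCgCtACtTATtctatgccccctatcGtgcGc
Serpina1e (chr12:103947108-103947179, reverse strand): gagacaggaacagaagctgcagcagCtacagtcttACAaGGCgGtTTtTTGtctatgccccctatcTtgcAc

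The Serpina3 genes were less alike, at 80.8% to 91.8% coding identity, with Serpina3k and Serpina3m the closest pair. Their stretches begin with a conserved hinge in lower case, and capitals mark the divergent part after it.
Serpina3k (chr12:104345275-104345337, forward strand): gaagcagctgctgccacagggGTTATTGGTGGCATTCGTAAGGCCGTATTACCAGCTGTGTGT
Serpina3m (chr12:104393775-104393843, forward strand): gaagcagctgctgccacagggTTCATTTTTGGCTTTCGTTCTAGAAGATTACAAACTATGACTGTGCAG
Serpina3n (chr12:104413454-104413522, forward strand): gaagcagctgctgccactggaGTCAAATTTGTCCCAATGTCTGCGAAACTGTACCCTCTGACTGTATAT
Serpina3g (chr12:104241078-104241146, forward strand): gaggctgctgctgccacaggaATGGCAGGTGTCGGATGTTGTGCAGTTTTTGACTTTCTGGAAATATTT
Serpina3f (chr12:104220251-104220322, forward strand): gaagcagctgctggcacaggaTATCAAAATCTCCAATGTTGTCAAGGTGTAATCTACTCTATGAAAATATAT

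This likeness limits the counts of single copies. Of all 50-base windows of the annotated transcripts, 67.4% of Serpina1a, 35.8% of Serpina1b, 74.2% of Serpina1c, 50.9% of Serpina1d and 35.6% of Serpina1e also occurred in another gene's transcript. The share was 6.9% for Serpina3n and at most 19.1% for a Serpina3 gene, Serpina3m. Values of single Serpina1 copies are therefore uncertain wherever reads could be placed on more than 1 copy. The summed Serpina1 level in CPM is given for every hepatocyte and immune group.

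Promoter windows of 250 bases before to 50 after the start site were held by RefSeq (GRCm38.p6) for 8 of the 10 genes, all but Serpina3k and Serpina3m. Short motifs were searched on both strands. TTCNNNGAA, the palindrome bound by STAT factors, was held by 8.3% of 32851 promoters, GTTAAT, a half-site of the hepatocyte factor HNF1, by 7.1%, and TTGCNNAA, bound by C/EBP factors, by 10.8%. GTTAAT occurred in all 5 Serpina1 windows. TTCNNNGAA occurred in the Serpina3g and Serpina3f windows, and in neither the Serpina3n window nor any Serpina1 window. TTGCNNAA occurred in the windows of Serpina1a, Serpina1b, Serpina1d, Serpina1e and Serpina3f, and not in those of Serpina1c, Serpina3n and Serpina3g. The windows of Serpina1b, the copy with the most counts, of Serpina1e, the copy called higher in IL-6 STAT3KO than in IL-6 hepatocytes, and of the 3 Serpina3 genes are shown with GTTAAT and TTCNNNGAA matches in capitals. A match is a description of these letters only.
Serpina1b (chr12:103738140-103738439, reverse strand): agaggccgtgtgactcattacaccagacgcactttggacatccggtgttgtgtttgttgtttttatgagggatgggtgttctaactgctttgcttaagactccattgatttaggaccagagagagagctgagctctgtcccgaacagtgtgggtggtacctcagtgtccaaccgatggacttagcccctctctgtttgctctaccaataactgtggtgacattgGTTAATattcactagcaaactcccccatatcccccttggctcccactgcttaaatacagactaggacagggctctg
Serpina1e (chr12:103956848-103957147, reverse strand): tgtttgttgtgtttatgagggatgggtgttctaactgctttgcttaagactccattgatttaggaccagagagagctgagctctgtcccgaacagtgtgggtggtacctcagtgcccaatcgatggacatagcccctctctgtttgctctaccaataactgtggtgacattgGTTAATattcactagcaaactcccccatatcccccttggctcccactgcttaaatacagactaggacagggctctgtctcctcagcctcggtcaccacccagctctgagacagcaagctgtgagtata
Serpina3n (chr12:104406458-104406757, forward strand): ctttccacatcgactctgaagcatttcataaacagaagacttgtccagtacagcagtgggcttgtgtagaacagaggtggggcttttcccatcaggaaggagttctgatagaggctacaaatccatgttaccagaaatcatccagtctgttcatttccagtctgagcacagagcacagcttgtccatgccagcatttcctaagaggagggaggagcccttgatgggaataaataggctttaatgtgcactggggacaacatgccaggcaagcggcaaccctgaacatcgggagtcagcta
Serpina3g (chr12:104235897-104236196, forward strand): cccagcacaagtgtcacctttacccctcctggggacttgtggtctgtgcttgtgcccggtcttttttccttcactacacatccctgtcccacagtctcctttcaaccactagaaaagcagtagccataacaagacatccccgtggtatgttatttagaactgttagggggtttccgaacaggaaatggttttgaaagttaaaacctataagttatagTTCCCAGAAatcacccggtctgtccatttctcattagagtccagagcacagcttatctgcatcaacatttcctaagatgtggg
Serpina3f (chr12:104214294-104214593, forward strand): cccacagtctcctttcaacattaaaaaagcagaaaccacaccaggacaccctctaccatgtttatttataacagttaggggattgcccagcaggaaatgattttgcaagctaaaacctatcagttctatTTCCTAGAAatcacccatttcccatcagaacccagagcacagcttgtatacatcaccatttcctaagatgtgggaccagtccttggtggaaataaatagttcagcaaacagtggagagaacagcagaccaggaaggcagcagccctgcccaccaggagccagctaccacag

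Per length, Serpina3k was the most abundant member in GFP hepatocytes, at 3945 and 5154 CPM per kb. Serpina1b followed at 1566 and 1522 CPM per kb, then Serpina1a at 840 and 775, Serpina1d at 721 and 690, and Serpina1c at 317 and 276 CPM per kb. Serpina3m at 232 and 297 CPM per kb overlapped both Serpina1c and Serpina3n, which stood at 198 and 252 CPM per kb. Serpina1e had 4.63 and 6.00 CPM per kb, Serpina3g 0.578 and 0.425, and Serpina3f 0.391 and 0.330 CPM per kb. The last pair rested on few reads. Serpina1b held the largest share of Serpina1 counts in every hepatocyte library, between 44.5% and 71.2%.

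**Figure D1:**
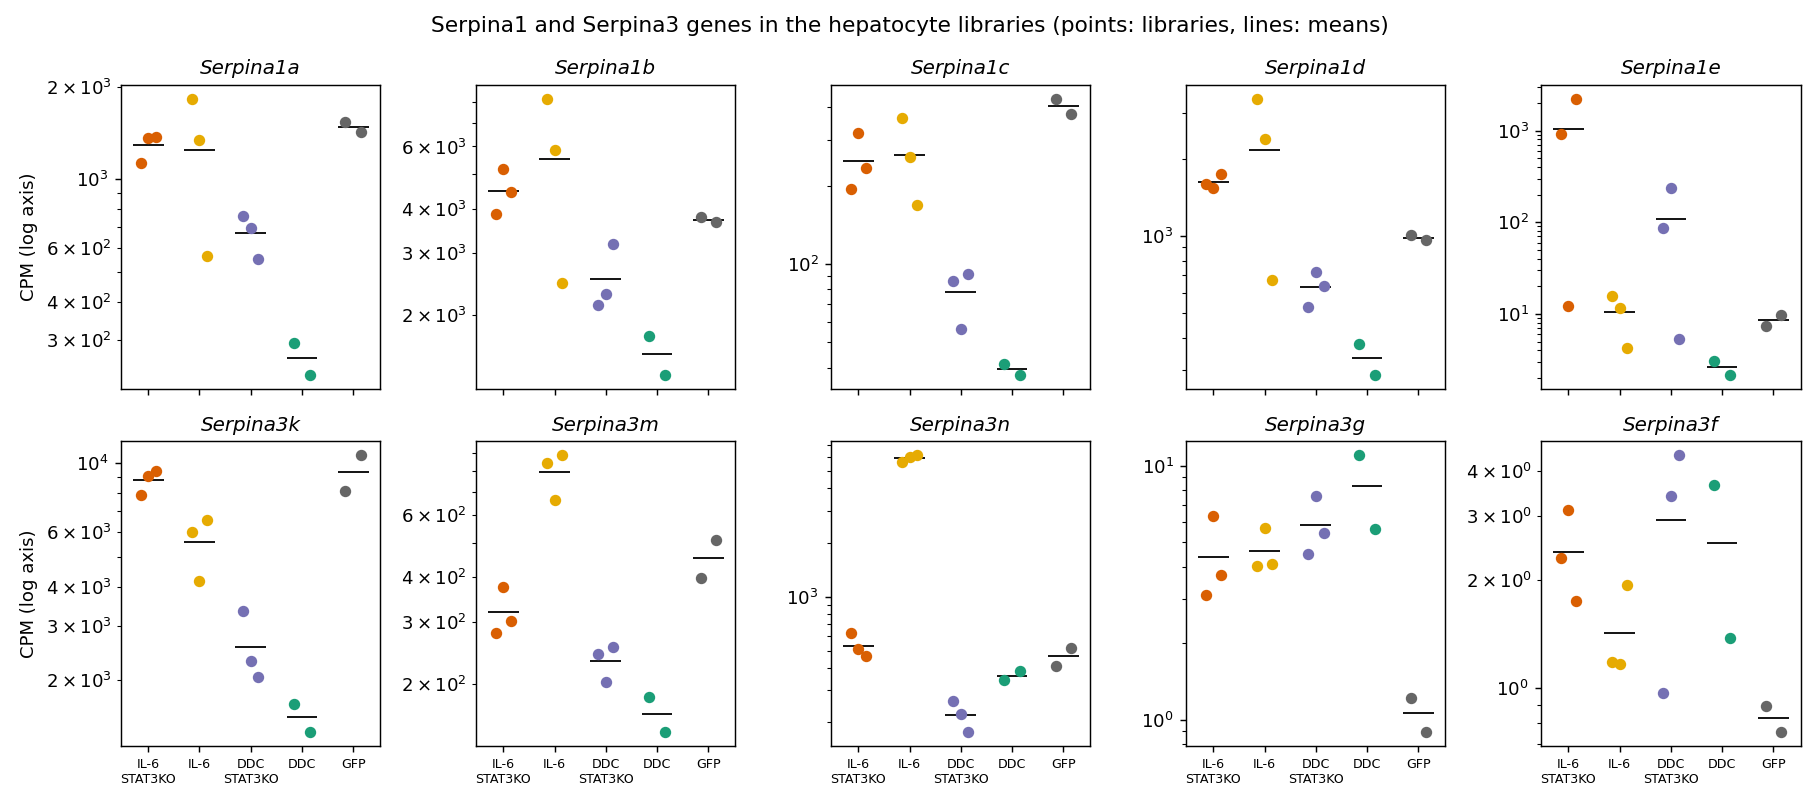
CPM of each of the 10 genes in the hepatocyte libraries, on a log axis with its own range per gene, where points are libraries and lines are group means. The 3 IL-6 libraries sit apart from all others for Serpina3n, and Serpina1e is high in 4 of the 6 STAT3KO libraries.

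The IL-6 plasmid against the GFP plasmid asks which genes respond to IL-6 in hepatocytes. Serpina3n, an inhibitor known in mouse as an acute phase plasma protein, stood at 5651, 6021 and 6123 CPM in IL-6 hepatocytes, against 408 and 520 CPM in GFP hepatocytes. Every IL-6 library was above every GFP library, and the gene rose 12.8-fold (log2 fold change 3.68 ± 0.29 SE, edgeR adjusted p = 1.39e-05). Serpina3m rose with it, to 841, 661 and 887 CPM in IL-6 hepatocytes, against 399 and 510 CPM in GFP hepatocytes (log2 fold change 0.81 ± 0.24, edgeR adjusted p = 0.0245). That call was lost without GFP replicate 1 (adjusted p = 0.219), GFP replicate 2 (0.0692), IL-6 replicate 1 (0.0597) or IL-6 replicate 3 (0.0574). Serpina3g, a serpin of mouse that stays inside cells and inhibits cathepsins, rose to 4.03, 5.67 and 4.12 CPM in IL-6 hepatocytes, against 1.22 and 0.894 CPM in GFP hepatocytes (log2 fold change 2.12 ± 0.45, edgeR adjusted p = 0.00536). It missed the threshold without GFP replicate 2 (adjusted p = 0.0661).

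Of the 10 genes, 3 were called higher and 0 lower under IL-6, where 25.9% of all 14339 genes tested were called, 13.7% higher and 12.2% lower. The median log2 fold change of the members was 0.68, against 0.04 over all genes. Serpina3k, the most abundant copy, had 6010, 4173 and 6577 CPM in IL-6 hepatocytes, against 8115 and 10601 CPM in GFP hepatocytes. These values did not overlap, but the difference did not pass the test (log2 fold change -0.74 ± 0.30, edgeR adjusted p = 0.0884). How many of all genes had no overlap between the IL-6 and GFP groups was not computed. The make-up of the Serpina3 counts differed too: Serpina3n held 45.2%, 55.4% and 45.0% of them in IL-6 hepatocytes, against 4.58% and 4.47% in GFP hepatocytes.

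No Serpina1 gene was called under IL-6 by edgeR with all libraries fitted. Their summed level was 13811, 9886 and 3886 CPM in IL-6 hepatocytes, against 6765 and 6444 CPM in GFP hepatocytes. IL-6 replicates 1 and 2 were above both GFP libraries and replicate 3, the library with little Alb, was below them. Serpina1d had 3421, 2391 and 673 CPM in IL-6 hepatocytes, against 1005 and 962 CPM in GFP hepatocytes (log2 fold change 1.14 ± 0.49, edgeR adjusted p = 0.108). It was called higher without IL-6 replicate 3 (1.56, edgeR adjusted p = 0.00259) and by DESeq2 (adjusted p = 0.0471). Without IL-6 replicate 3 and DDC STAT3KO replicate 3 together, 6 members were called in place of 3, and those gained were Serpina1b and Serpina1d, higher, and Serpina3k, lower. The share of all genes called in that refit was not computed. Markers of several cell types differed between the IL-6 and GFP groups. Of 7 hepatocyte markers tested 4 were called lower under IL-6 and 0 higher (median log2 fold change -1.70), and both cholangiocyte markers tested were called higher. Also called higher were 3 of 6 Kupffer cell, 1 of 6 macrophage, 2 of 6 monocyte, 2 of 3 neutrophil and 1 of 1 T cell markers tested, with 0 called lower. Of the endothelial and stellate cell markers 0 were called. Of all genes tested 13.7% were called higher and 12.2% lower. Set against the summed hepatocyte markers, the Serpina1 level was 12.8%, 19.8% and 20.5% in IL-6 hepatocytes, against 7.70% and 7.03% in GFP hepatocytes, with no overlap. The marker sum itself was 107591, 49891 and 18963 CPM in IL-6 hepatocytes, against 87845 and 91622 CPM in GFP hepatocytes. The ratio therefore also moves with the markers and is no correction for cell make-up. The same ratio for Serpina3k was 5.59%, 8.36% and 34.7% in IL-6 hepatocytes, against 9.24% and 11.6% in GFP hepatocytes, and these values overlapped. The part of cell make-up in these levels, and in the Serpina3g level under IL-6, was not tested.

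**Figure D2:**
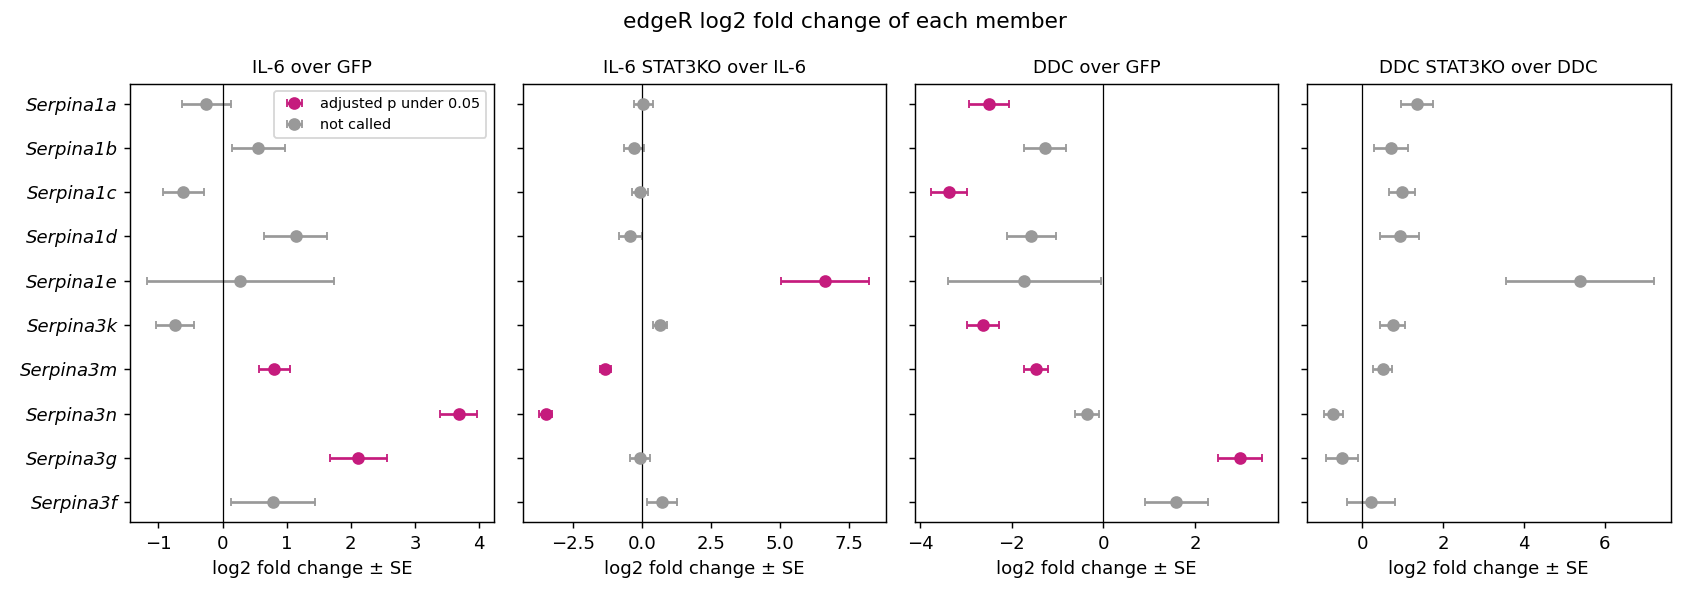
edgeR log2 fold change with its SE (bars) for each gene in 4 hepatocyte comparisons, with genes called at an adjusted p under 0.05 in pink and the others in grey. Serpina3n lies at 3.68 for IL-6 over GFP and at -3.48 for IL-6 STAT3KO over IL-6.

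IL-6 STAT3KO against IL-6 hepatocytes asks what hepatocyte STAT3 adds, although these groups also differ in the floxed genotype and in the vector. Serpina3n fell to 624, 507 and 466 CPM in IL-6 STAT3KO hepatocytes, against 5651, 6021 and 6123 CPM in IL-6 hepatocytes (log2 fold change -3.48 ± 0.24, edgeR adjusted p = 3.87e-06). Serpina3m fell to 278, 375 and 302 CPM in IL-6 STAT3KO hepatocytes, against 841, 661 and 887 CPM in IL-6 hepatocytes (-1.32 ± 0.21, edgeR adjusted p = 0.000725). Neither gene overlapped between the groups, and the share of all genes so separated was not computed. Serpina3g did not pass the test, with 3.10, 6.34 and 3.73 CPM in IL-6 STAT3KO hepatocytes, against 4.03, 5.67 and 4.12 CPM in IL-6 hepatocytes (-0.07 ± 0.36). In all, 2 members were called lower and 1 higher, where 26.4% of all genes tested were called, 13% higher and 13.4% lower. Of 7 hepatocyte markers 3 were called higher in IL-6 STAT3KO than in IL-6 hepatocytes and 0 lower, and both cholangiocyte markers tested were called lower. Among markers of the other cell types, 1 of 6 monocyte, 1 of 3 neutrophil and 1 of 1 T cell markers tested were called lower, and 0 higher. The part of these cell types in the members' values was not tested.

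The gene called higher was Serpina1e, a Serpina1 copy. It had 918, 12.2 and 2223 CPM in IL-6 STAT3KO hepatocytes, against 15.6, 11.6 and 4.30 CPM in IL-6 hepatocytes. The groups overlapped, because IL-6 STAT3KO replicate 2 lay within the IL-6 range, and the fitted log2 fold change was 6.65 ± 1.60 (edgeR adjusted p = 0.00928). In DDC STAT3KO hepatocytes it had 86.5, 237 and 5.31 CPM, against 3.08 and 2.14 CPM in DDC hepatocytes. The summed Serpina1 level was 7689, 8411 and 10029 CPM in IL-6 STAT3KO hepatocytes, against 13811, 9886 and 3886 CPM in IL-6 hepatocytes, and these values overlapped. As a share of Serpina1 counts, Serpina1e lay between 0.111% and 0.151% in 9 of the 13 hepatocyte libraries. In the other 4 libraries, all of them STAT3KO, it was 2.40%, 5.90%, 11.9% and 22.2%. The STAT3KO libraries thus fell into high and low ones, 4 and 2 of 6, and the 7 libraries without Cre were all low. The strain label was the same for every library, but it does not give the Serpina1 genotype of single mice. What separated the high from the low libraries was not tested.

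**Figure D3:**
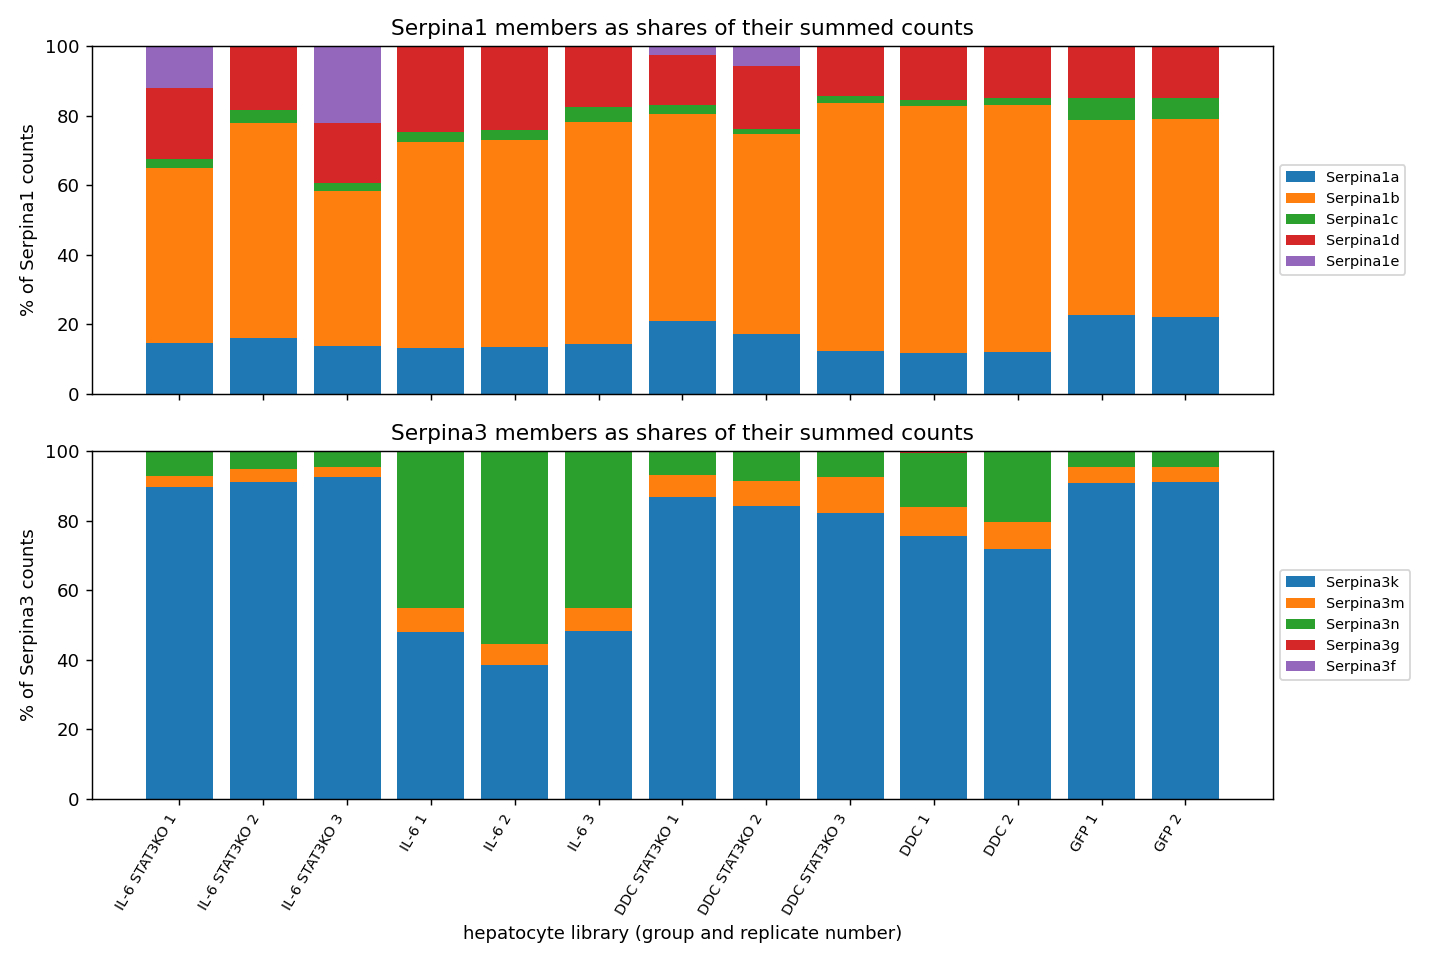
Share of the summed Serpina1 counts (top) and Serpina3 counts (bottom) held by each gene in each hepatocyte library, in percent. Serpina3n takes 45.0% to 55.4% of the Serpina3 counts in IL-6 hepatocytes, and Serpina1e reaches 22.2% of the Serpina1 counts in IL-6 STAT3KO replicate 3.

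Against GFP hepatocytes, which also serve as the comparison for the IL-6 and DDC groups, IL-6 STAT3KO hepatocytes had 1 called member. These groups differ in plasmid, STAT3 loss, floxed genotype and vector, which cannot be told apart here. Serpina3g rose to 3.10, 6.34 and 3.73 CPM in IL-6 STAT3KO hepatocytes, against 1.22 and 0.894 CPM in GFP hepatocytes (log2 fold change 2.05 ± 0.45, edgeR adjusted p = 0.0301), where 3.12% of all genes tested were called, 2.26% higher and 0.865% lower. The call was lost without either GFP library (adjusted p = 0.188 without replicate 1 and 0.273 without replicate 2) and without IL-6 STAT3KO replicate 2 (0.0883) or 3 (0.0570). Serpina3n did not pass the test here (0.20 ± 0.25, edgeR adjusted p = 0.713). Serpina1e missed the threshold as well (6.93 ± 1.95, edgeR adjusted p = 0.0807).

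DDC against GFP hepatocytes compares injury with a control that differs also in genotype, vector and injection, so the diet cannot be told apart from these. Of the 10 genes, 4 were called lower and 1 higher, where 8.29% and 10.4% of all genes tested were. Serpina3k fell to 1681 and 1363 CPM in DDC hepatocytes, against 8115 and 10601 CPM in GFP hepatocytes (log2 fold change -2.62 ± 0.35, edgeR adjusted p = 0.00122). Serpina1c fell to 41.4 and 37.3 CPM in DDC hepatocytes, against 432 and 376 CPM in GFP hepatocytes (-3.36 ± 0.39, edgeR adjusted p = 0.000610). Serpina1a fell to 295 and 231 CPM in DDC hepatocytes, against 1539 and 1420 CPM in GFP hepatocytes (-2.49 ± 0.44, edgeR adjusted p = 0.00409). Serpina3m fell to 183 and 146 CPM in DDC hepatocytes, against 399 and 510 CPM in GFP hepatocytes (-1.47 ± 0.26, edgeR adjusted p = 0.00402), a call lost without DDC replicate 2 (adjusted p = 0.0502). In each of these 4 genes, already called lower, both DDC libraries were below both GFP libraries. The share of all genes so separated was not computed.

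Serpina1b had 1748 and 1352 CPM in DDC hepatocytes, against 3782 and 3677 CPM in GFP hepatocytes, and did not pass the test (-1.27 ± 0.45, edgeR adjusted p = 0.0687). Serpina1d had 379 and 285 CPM in DDC hepatocytes, against 1005 and 962 CPM in GFP hepatocytes (-1.57 ± 0.53, edgeR adjusted p = 0.0571). The summed Serpina1 level was 2467 and 1907 CPM in DDC hepatocytes, against 6765 and 6444 CPM in GFP hepatocytes. Set against the hepatocyte markers it was 2.64% and 2.46% in DDC hepatocytes, against 7.70% and 7.03% in GFP hepatocytes. Serpina3n stood at 341 and 384 CPM in DDC hepatocytes, against 408 and 520 CPM in GFP hepatocytes (-0.36 ± 0.27, edgeR adjusted p = 0.368). In all, 4 members were called lower and 1 higher, where 18.6% of all genes tested were called, 10.4% higher and 8.29% lower, and the members' median log2 fold change was -1.52, against 0.02 over all genes. With the DDC and GFP groups fitted alone, 8 members were called, and the share of all genes called in that refit was not computed.

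The gene called higher was Serpina3g, with 11.0 and 5.66 CPM in DDC hepatocytes, against 1.22 and 0.894 CPM in GFP hepatocytes (log2 fold change 2.97 ± 0.48, edgeR adjusted p = 0.00288). Markers of several other cell types, though not of all, were also higher in DDC hepatocytes. The 6 Kupffer cell markers summed to 220 to 343 CPM in DDC hepatocytes, against 21.6 to 28.7 CPM in GFP hepatocytes, and the 6 macrophage markers to 124 to 227 CPM, against 28.2 to 32.1 CPM. The Kupffer sums were 87.8 to 193 CPM in IL-6 STAT3KO, 48.4 to 120 CPM in IL-6 and 40.4 to 299 CPM in DDC STAT3KO hepatocytes, and no marker of either list was at 0 in any group. The 4 neutrophil markers in the table summed to 1.64 to 2.50 CPM in DDC and 0.998 to 9.79 CPM in IL-6 hepatocytes, against 0.128 to 0.206 CPM in GFP hepatocytes, where 2 of the 4 were at 0. The 4 stellate cell markers summed to 153 to 219 CPM in DDC and 42.9 to 89.2 CPM in IL-6 hepatocytes, against 43.4 to 43.6 CPM in GFP hepatocytes. The 3 cholangiocyte markers summed to 488 to 540 CPM in DDC and 2116 to 10655 CPM in IL-6 hepatocytes, against 1.66 to 3.44 CPM in GFP hepatocytes, where 2 of the 3 were at 0. Sums of monocyte and endothelial markers differed less, at 24.1 to 26.3 and 126 to 149 CPM in DDC, against 16.1 to 22.4 and 93.5 to 110 CPM in GFP hepatocytes. Single monocyte markers differed more than their sum: of 6 tested, 3 were called higher and 0 lower (median log2 fold change 3.91). Of all genes tested 10.4% were called higher and 8.29% lower. Of the 4 endothelial markers 0 were called. The 2 T cell markers counted summed to less in DDC, at 0.0530 to 0.0891 CPM, against 0.206 to 0.256 CPM in GFP hepatocytes, values that rest on few reads. The 1 T cell marker tested, Cd28, was not called in DDC against GFP hepatocytes (log2 fold change 0.45). In IL-6 hepatocytes the T cell sum was 11.0 to 36.9 CPM, and Cd28 was called higher than in GFP hepatocytes (9.17). The 1 B cell marker counted overlapped, with 0.0530 to 0.312 CPM in DDC and 0.00 to 0.0640 CPM in GFP hepatocytes. The part of these cell types in the Serpina3g values was not tested. Serpina3f, also at a few CPM, had 2.29, 3.11 and 1.75 CPM in IL-6 STAT3KO, 1.18, 1.17 and 1.93 CPM in IL-6, 0.968, 3.41 and 4.42 CPM in DDC STAT3KO, 3.66 and 1.38 CPM in DDC and 0.896 and 0.757 CPM in GFP hepatocytes, and was called in none of the hepatocyte comparisons. In bulk libraries, fewer cells of a type and less RNA per cell cannot be told apart.

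DDC STAT3KO against DDC hepatocytes had 0 called members and 0.00% of all genes called by edgeR. In the same comparison 5 members had an unadjusted p under 0.05 and DESeq2 called 3. The shares of all genes by unadjusted p and by DESeq2 were not computed, so these counts cannot be set against a background. Serpina3n had 261, 223 and 176 CPM in DDC STAT3KO hepatocytes, against 341 and 384 CPM in DDC hepatocytes (log2 fold change -0.72 ± 0.24, edgeR adjusted p = 0.853). All DDC STAT3KO libraries were below both DDC libraries. Serpina1a had 761, 695 and 551 CPM in DDC STAT3KO hepatocytes, against 295 and 231 CPM in DDC hepatocytes (1.35 ± 0.40, edgeR adjusted p = 0.853), again with no overlap. The summed Serpina1 level was 3598, 4006 and 4459 CPM in DDC STAT3KO hepatocytes, against 2467 and 1907 CPM in DDC hepatocytes. Serpina3k had 3341, 2301 and 2046 CPM in DDC STAT3KO hepatocytes, against 1681 and 1363 CPM in DDC hepatocytes (0.75 ± 0.31, edgeR adjusted p = 0.853). Serpina3k, Serpina3m, Serpina1b, Serpina1c, Serpina1d and Serpina1e were also higher in every DDC STAT3KO library than in both DDC libraries, while Serpina3g and Serpina3f overlapped. How many of all genes were so separated was not computed.

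The difference between the STAT3KO effect under IL-6 and that under DDC was tested as an interaction, and 2 members were called, both with a lower effect under IL-6, where 8.28% of all genes tested were called, 4.20% higher and 4.08% lower. For Serpina3n the effect under IL-6 was lower by a log2 difference of -2.76 ± 0.34 (edgeR adjusted p = 0.000689). For Serpina3m the difference was -1.82 ± 0.31 (edgeR adjusted p = 0.00485), with an effect of -1.32 under IL-6 and 0.50 under DDC. For Serpina3k, Serpina3g, Serpina3f and the 5 Serpina1 genes the difference did not pass the test. The 2 effects share no libraries, but their controls are unlike: IL-6 STAT3KO is set against WT mice with no vector named, DDC STAT3KO against floxed mice with AAV-TBG-GFP. The interaction therefore also holds genotype and vector, which cannot be told apart from STAT3 loss under IL-6.

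Other genes of the serpin system give the setting. Of 14 other clade A serpins 11 were tested, and 3 were called higher and 2 lower in IL-6 against GFP hepatocytes, where 13.7% of all genes tested were called higher and 12.2% lower. Serpina10, the inhibitor of factor Xa that works with protein Z, rose (log2 fold change 2.88 ± 0.24, edgeR adjusted p = 2.57e-05), and Serpina6, the corticosteroid-binding globulin, fell (-4.53 ± 0.47, edgeR adjusted p = 7.08e-05). In IL-6 STAT3KO against IL-6 hepatocytes, 3 of the 11 were called higher and 6 lower, where 13% of all genes were called higher and 13.4% lower, with Serpina10 at -2.48 ± 0.20 (edgeR adjusted p = 1.13e-05) and Serpina6 at 4.61 ± 0.46 (edgeR adjusted p = 3.29e-05). In DDC against GFP hepatocytes 2 were called lower and 0 higher, where 8.29% and 10.4% of all genes were. Of 13 genes that regulate serpin transcription or IL-6 signalling, 3 were called higher and 0 lower under IL-6, a count to be read against the same 13.7% and 12.2%, among them the feedback inhibitor Socs3 (4.46 ± 0.40, edgeR adjusted p = 2.89e-05).

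Likeness to a member was measured as the root mean square difference of centred log2 CPM over the 13 hepatocyte libraries, among 5651 genes that averaged 20 CPM or more. The genes nearest to Serpina3n were Fgb at 0.454, Fgg at 0.463 and Itih4 at 0.472, where the median gene lay at 1.83. Nudt7 at 0.408, Gpcpd1 at 0.467 and Msrb1 at 0.511 were nearest to Serpina3k, where the median was 1.05. Epha2 at 0.398, Msn at 0.435 and Dnmt1 at 0.489 were nearest to Serpina3g, where the median was 1.04. No gene came close to Serpina1e, whose own SD was 3.08: the nearest, H2-Ab1, lay at 2.02.

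In the immune cells, Serpina3g had the highest CPM of the 5 Serpina3 genes in 7 of 12 libraries. It had 154 and 114 CPM in neutrophils, 199 and 76.1 CPM in T-labelled libraries, 10.5 and 36.3 CPM in Ly6C-high monocytes, 16.5 and 23.7 CPM in Ly6C-low monocytes, 48.0 and 46.4 CPM in DDC macrophages and 40.6 and 41.7 CPM in normal diet macrophages. The neutrophil and T-labelled libraries overlapped each other and were above all the rest, and the pair of monocyte groups overlapped. The immune and hepatocyte tables were scaled separately, so their levels can only be set side by side: the highest Serpina3g level in hepatocytes was 11.0 CPM. In neutrophils against the mean of the other 4 DDC cell types Serpina3g rose (log2 fold change 1.68 ± 0.45, edgeR adjusted p = 0.0446), the 1 member called, where 3.95% of 27759 genes tested were called, 3.26% higher and 0.684% lower. The call was lost with only the compared groups fitted (edgeR adjusted p = 0.0687) and without Ly6C-low monocyte replicate 1 (adjusted p = 0.0539).

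Serpina3f, the neighbour of Serpina3g, had 39.1 and 31.8 CPM in neutrophils and 1.93 and 53.8 CPM in the T-labelled libraries. It had 6.27 and 10.3 CPM in Ly6C-high monocytes, 0.00 and 2.07 CPM in Ly6C-low monocytes, 14.8 and 12.6 CPM in DDC macrophages and 18.2 and 21.1 CPM in normal diet macrophages. No comparison of it passed the test. DDC against normal diet macrophages had 0 called members of 9 tested, where 0.0252% of all genes were called by edgeR and 1 member had an unadjusted p under 0.05. Ly6C-high against Ly6C-low monocytes had 0 called members as well, where 0.00% of all genes were called and 4 members had an unadjusted p under 0.05. DESeq2 also called 0 in both. Against the mean of the other DDC cell types, edgeR called 0 members in macrophages, Ly6C-low monocytes and Ly6C-high monocytes, where 0.695%, 0.0108% and 0.267% of all genes were called. In those 3 comparisons 2, 2 and 8 members had an unadjusted p under 0.05, and DESeq2 called 0, 2 and 7. For all these comparisons the shares of all genes by unadjusted p and by DESeq2 were not computed.

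**Figure D4:**
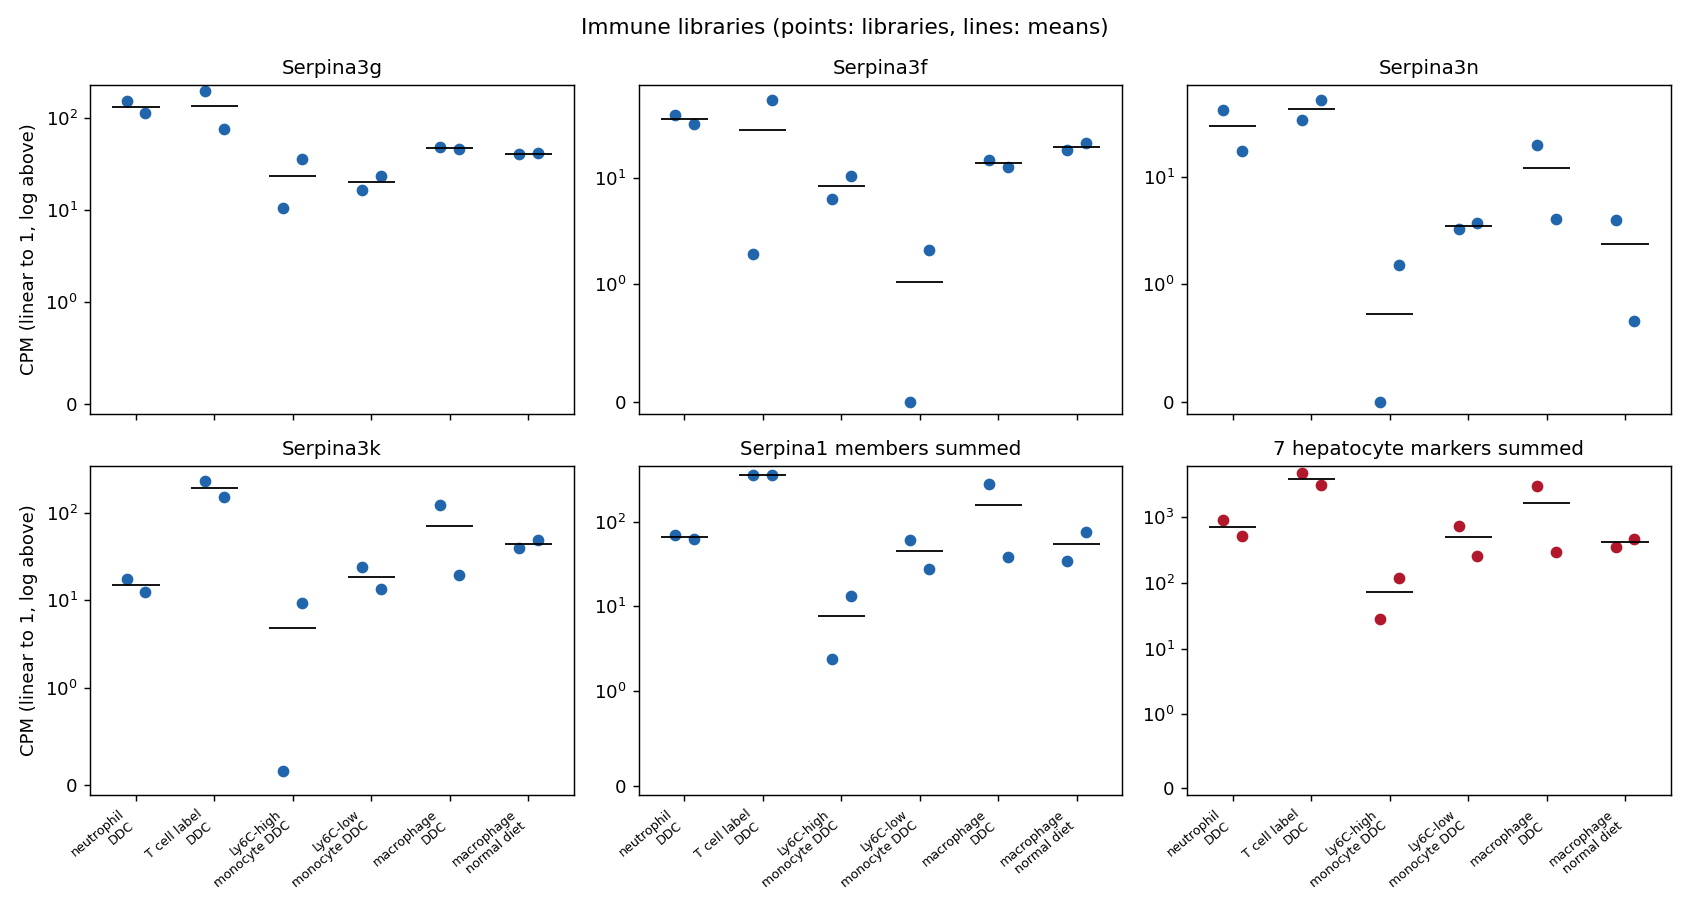
CPM of 4 Serpina3 genes, of the summed Serpina1 genes and of 7 summed hepatocyte markers in the immune libraries, on an axis that is linear up to 1 and logarithmic above, where points are libraries and lines are means of 2. Serpina3g is at 76.1 CPM or more in the neutrophil and T-labelled libraries and at 48.0 CPM or less in the others, and the Serpina1 and hepatocyte marker panels have their highest values in the T-labelled libraries.

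The Serpina1 genes and Serpina3k were also counted in immune libraries. The summed Serpina1 level was 69.2 and 62.1 CPM in neutrophils, 352 and 351 CPM in T-labelled libraries, 2.39 and 13.2 CPM in Ly6C-high monocytes, 61.5 and 27.7 CPM in Ly6C-low monocytes, 279 and 38.6 CPM in DDC macrophages and 34.3 and 75.2 CPM in normal diet macrophages. In T-labelled libraries against the other DDC cell types, Serpina1a, Serpina1b, Serpina1c and Serpina3k rose, 4 of the 9 members tested, where 1.21% of all genes were called, 0.911% higher and 0.303% lower. Their log2 fold changes were 3.31 ± 0.73, 2.72 ± 0.52, 3.56 ± 0.79 and 3.45 ± 0.66, with edgeR adjusted p-values from 0.0174 to 0.0382, while the median over all genes was -0.26. The count was 8 without filtering on low counts, 8 with DESeq2, 7 to 8 when any 1 library was left out and 1 with only the compared groups fitted. The share of all genes called was not computed for these refits.

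Hepatocyte transcripts were present in the same libraries. The 7 hepatocyte markers, Alb among them, summed to 521 to 908 CPM in neutrophils, 3047 to 4586 CPM in T-labelled libraries, 28.5 to 118 CPM in Ly6C-high monocytes, 259 to 728 CPM in Ly6C-low monocytes, 289 to 2981 CPM in DDC macrophages and 353 to 465 CPM in normal diet macrophages, with none of the 7 at 0 in any group. Set against that sum, the Serpina1 level was 7.63% to 13.4% in the 10 DDC immune libraries and 9.73% and 16.2% in normal diet macrophages. In hepatocytes the same ratio was 3.88% to 4.43% in the DDC STAT3KO group, 2.64% and 2.46% in DDC, 5.47% to 8.95% in IL-6 STAT3KO, 12.8% to 20.5% in IL-6 and 7.70% and 7.03% in GFP. In this Serpina1 ratio every DDC immune library lay above every hepatocyte library of DDC-fed mice. For Serpina3k the ratio was 0.522% to 7.97% in DDC immune libraries and 1.76% to 3.79% in hepatocytes of DDC-fed mice, and these overlapped. Serpina3g was 1.61% to 36.8% of the hepatocyte marker sum in immune libraries, and at most 0.0217% in hepatocyte libraries. The part of hepatocyte RNA in the Serpina1 and Serpina3k values was not tested.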

How the data were processed

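The authors deposited raw gene counts in 2 tables, and all values derive from these counts. STAR, HTSeq, DESeq2 and the build mm10 are named in the submitters' processing notes, with versions not given in the sources used here. How multiply mapped reads were treated is also not given, which bears on the paralogs. Columns were matched to samples by title, with 0 left over, and an EGFP row was kept out. Symbols and gene models came from GENCODE M21 (GRCm38), and promoters from RefSeq.

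Each table was fitted whole with 1 term per group in edgeR 4.0.16 (R 4.3.3): TMM scaling, filterByExpr, quasi-likelihood F tests and Benjamini-Hochberg adjustment over 14339 hepatocyte genes (8 residual degrees of freedom) and 27759 immune genes (6). The SE is the log2 fold change divided by the square root of F. All 10 members were read in every comparison, with up to 4 genes per other list. The members and lists were chosen with earlier results of these data known. The code was tested on simulated data. Serpina1e had too few counts to be tested in immune cells. Alternatives were median-of-ratios scaling, no filter, DESeq2 1.42.0, a replicate block, only the compared groups, and libraries left out. Leaving out DDC neutrophil replicate 1 in every immune comparison was chosen after seeing the data.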

Additional observations from a re-analysis of the deposited data

Results flagged for a closer look

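The STAT3KO effect differed between IL-6 and DDC for 2 members by the interaction test. The controls were WT mice with no vector named under IL-6 and floxed mice with AAV-TBG-GFP under DDC, so genotype and vector cannot be told apart from STAT3 loss in this difference. For Serpina3n the log2 difference was -2.76 (edgeR adjusted p = 0.000689): every IL-6 STAT3KO library was below every IL-6 library, and every DDC STAT3KO library below both DDC libraries, by less. For Serpina3m the log2 difference was -1.82 (edgeR adjusted p = 0.00485), with a lower level in all 3 IL-6 STAT3KO libraries than in any IL-6 library. How many of all genes were so separated was not computed.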

How the results depend on the processing

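Of 1683 refitted log2 fold changes over all members and comparisons, 74 had another sign, of which 0 belonged to a called value. Among the values reported, Serpina3g in IL-6 STAT3KO over IL-6 ranged from -0.43 to 0.13 when 1 library was left out. Counts of called members were within 1.5 times the reported count in 57 of 85 refits that did not leave out 1 library alone. The share of all genes called was not computed for any refit. DESeq2 called 5 for IL-6 over GFP, 2 for IL-6 STAT3KO over GFP, 3 for DDC STAT3KO over DDC, and 8, 2, 2 and 7 for T-labelled, neutrophil, Ly6C-low and Ly6C-high libraries over the other DDC cells. With only the compared groups fitted the count was 2 for IL-6 STAT3KO over GFP, 8 for DDC over GFP, 1 for T-labelled and 0 for neutrophil libraries. With no filter on low counts it was 8, 3, 1 and 5 for T-labelled, neutrophil, Ly6C-low and Ly6C-high libraries, and median-of-ratios scaling gave 1 for Ly6C-high. Without IL-6 replicate 3 and DDC STAT3KO replicate 3 it was 6 for IL-6 over GFP, 5 for IL-6 STAT3KO over IL-6, 2 for IL-6 STAT3KO over GFP and 5 for the interaction. Without neutrophil replicate 2 and Ly6C-high replicate 1 it was 8 for T-labelled and 2 for Ly6C-low libraries. Without DDC neutrophil replicate 1, a setting chosen after seeing the data, it was 1 for DDC macrophages, 8 for T-labelled, 2 for Ly6C-low and 5 for Ly6C-high libraries. When any 1 library was left out, counts ran from 1 to 3 for IL-6 over GFP, 3 to 4 for IL-6 STAT3KO over IL-6, 0 to 1 for IL-6 STAT3KO over GFP, 4 to 5 for DDC over GFP and 2 to 4 for the interaction. They ran from 0 to 2 for Ly6C-high over Ly6C-low, and over the other DDC cells from 0 to 3 for macrophages, 7 to 8 for T-labelled, 0 to 3 for neutrophil, 0 to 2 for Ly6C-low and 0 to 6 for Ly6C-high libraries. The labels state no pairing by replicate number. Deviations of same-numbered libraries correlated between -0.13 and 0.31 in hepatocytes, with 4 of 23 pairs over 0.1, and between -0.12 and 0.11 in immune cells. In groups of 2 the deviations mirror each other, so these values cannot exclude pairing. With the replicate block the count was 0 for neutrophil libraries, where Serpina3g had an adjusted p of 0.0529, and 1 for Ly6C-high libraries. The cause of these shifts was not tested. Low counts of Serpina3g and Serpina3f in hepatocytes, and 2 libraries in several groups, limit precision.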
